A study of Mus musculus with 6 samples.

Results

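The genes of NF-κB and its inhibitors were followed here. They are 10 in all: the 5 genes that encode the subunits of the transcription factor NF-κB (Nfkb1, Nfkb2, Rel, Rela and Relb), 4 genes of the IκB family (Nfkbia, Nfkbib, Nfkbie and Nfkbiz) and Tnfaip3, which encodes A20. They were chosen by gene symbol from a table of 46095 genes, and all 10 were among the 14120 genes with enough reads to be tested. Bulk RNA-seq was performed on BV2 cells, an immortalized mouse microglial line. The CON group held 3 libraries of untreated cells. The sTREM-1 group held 3 libraries of cells given 1 μg/mL recombinant sTREM-1, the soluble form of the myeloid receptor TREM-1, for 6 h. The labels name no other agent for either group. The cells were seeded in wells of a plate, and no label said whether the replicates were independent cultures, so the tests measure the spread between these libraries, which may be technical.

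NF-κB proteins act as dimers. In resting cells IκB proteins hold these dimers in the cytoplasm, and signals from Toll-like, cytokine and other receptors activate the IKK kinases, which mark IκB for destruction and free the dimers to enter the nucleus. There NF-κB switches on inflammatory genes in microglia and, among its best known targets, the genes of its own inhibitors, such as Nfkbia and Tnfaip3. This negative feedback ends the response. The activity of NF-κB is set largely at the protein level, which RNA counts do not measure.

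The libraries held 40070633 to 45877107 counts. In all tested genes, 4312 of 14120 passed the test at an adjusted p under 0.05, which was 30.5% of them. Of these, 2324 were higher with sTREM-1 (16.5%) and 1988 were lower (14.1%), and the median change of a called gene was 1.16-fold in either direction. The biological coefficient of variation was 3.99%. Among the 10 genes, a change of 7.39% passed the test in Nfkb1, while one of 3.54% in Rela did not. In the macrophage and microglia marker list, 9 of 11 genes reached 1 CPM (counts scaled to a common library size) in every library, and Lyz2 was the highest. Aif1 was listed at 0 in all libraries, as were Sall1, Gpr34 and Siglech of the 7 resident microglia markers, while P2ry12 and Tmem119 stayed near 1 CPM. The 20 markers of other cell types summed to 7.76 to 9.78 CPM, and 8 of them were at 0 in all libraries. The summed macrophage and microglia markers ranged from 5817 to 5886 CPM in CON and from 6096 to 6242 CPM in sTREM-1. Of the 10 tested, 5 rose, 0 fell and 5 did not pass, so the sum does not describe every marker. Csf1r, named after its values were seen, went from a mean of 521 CPM in CON to 753 CPM in sTREM-1. Lyz2 went from 3047.6 to 3037.5 CPM. The part of these markers in the results below was not tested. Changes in the number of cells that express a gene and in the RNA per cell cannot be told apart in bulk RNA.

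The DNA just before the transcription starts was examined first, because NF-κB binds a 10-base sequence known as the kappa-B consensus. RefSeq start positions (GRCm38.p6) were given for 7 of the 10 genes, as 10 windows of 250 bases. The consensus, searched on both strands, was found in windows of 5 of the 7 genes, namely Nfkb2, Rel, Nfkbia, Nfkbie and Tnfaip3, but not in those of Rela or Nfkbib. Among all genes with such windows, 1204 of 27025 (4.46%) had a match. Nfkb1, Relb and Nfkbiz had no entry. The 2 genes with the largest rises, Nfkbia and Tnfaip3, are shown at length. For the other 3 with a match, the stretches around the most upstream match of the first window are shown. Those 3, Nfkb2, Rel and Nfkbie, did not pass the test described below. Nfkb1 and Nfkbiz did pass it but had no entry. Sequences run 5′ to 3′ on the strand of each gene, with the matches in capitals. A match is a description of the letters and does not show that NF-κB was bound there.
Nfkbia, chr12:55492648-55492897, minus strand, up to the base before the start: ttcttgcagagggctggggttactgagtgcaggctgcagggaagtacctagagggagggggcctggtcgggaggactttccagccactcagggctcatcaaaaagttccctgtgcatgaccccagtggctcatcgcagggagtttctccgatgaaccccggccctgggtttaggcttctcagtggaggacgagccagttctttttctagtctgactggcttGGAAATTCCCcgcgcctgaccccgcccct
Tnfaip3, chr10:19015411-19015547, minus strand, up to the base before the start: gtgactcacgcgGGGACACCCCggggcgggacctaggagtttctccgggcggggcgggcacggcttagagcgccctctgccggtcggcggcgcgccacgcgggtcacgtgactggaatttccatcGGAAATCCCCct
Nfkb2, chr19:46304688-46304717, plus strand: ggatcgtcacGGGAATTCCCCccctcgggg
Rel, chr11:23771042-23771071, minus strand: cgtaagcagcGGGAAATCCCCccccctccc
Nfkbie, chr17:45555584-45555613, plus strand: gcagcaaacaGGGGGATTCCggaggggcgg

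The match before Nfkbia lay 29 to 20 bases upstream of the start, on the opposite strand. Tnfaip3 had 1 match at 125 to 116 bases and 1 at 12 to 3 bases upstream of its first start, and none before its second. In Nfkb2 and Rel the capitals cover overlapping matches on both strands, because the pattern is close to its own reverse complement. All 3 windows of Nfkb2 held at least 1 match. In the GENCODE annotation the printed stretches of Tnfaip3 and Nfkb2 lie within the genes. Their spans begin further upstream than these RefSeq starts, at 19015657 and 46304320. The same holds for the 2 genes without a match. The window of Nfkbib, chr7:28766645-28766894 on the minus strand, lies within its gene, whose span begins at 28767512. That of Rela, chr19:5637291-5637540, reaches into its gene, whose span begins at 5637483.

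**Figure D1:**
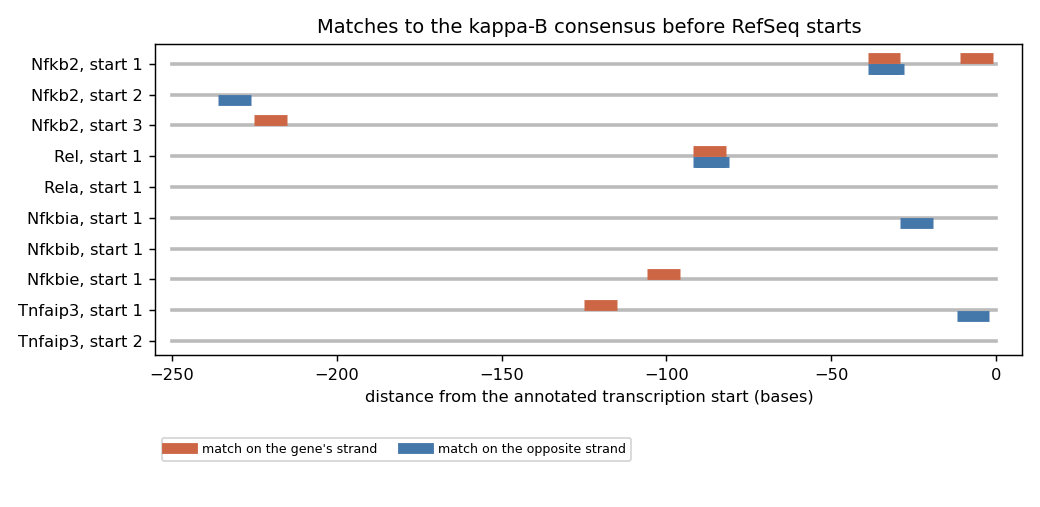
Matches to the kappa-B consensus in the 10 RefSeq windows of 7 genes, by distance in bases from each annotated start, coloured by strand. Of the 10 windows, 7 held a match, and those of Rela, Nfkbib and the second start of Tnfaip3 held none.

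Compared with the CON group, 4 of the 10 genes changed in the sTREM-1 group. Tnfaip3, Nfkbia and Nfkb1 rose and Nfkbiz fell. The background was 30.5% of all tested genes, so that 4 of 10 is close to it. The groups did not overlap in 5 of the 10 genes, against 40.7% of all tested genes. The median log2 fold change of the 10 genes was 0.05, while that of all tested genes was close to 0, with quartiles of -0.13 and 0.13. All changes were small, and the largest was the rise of Tnfaip3.

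**Figure D2:**
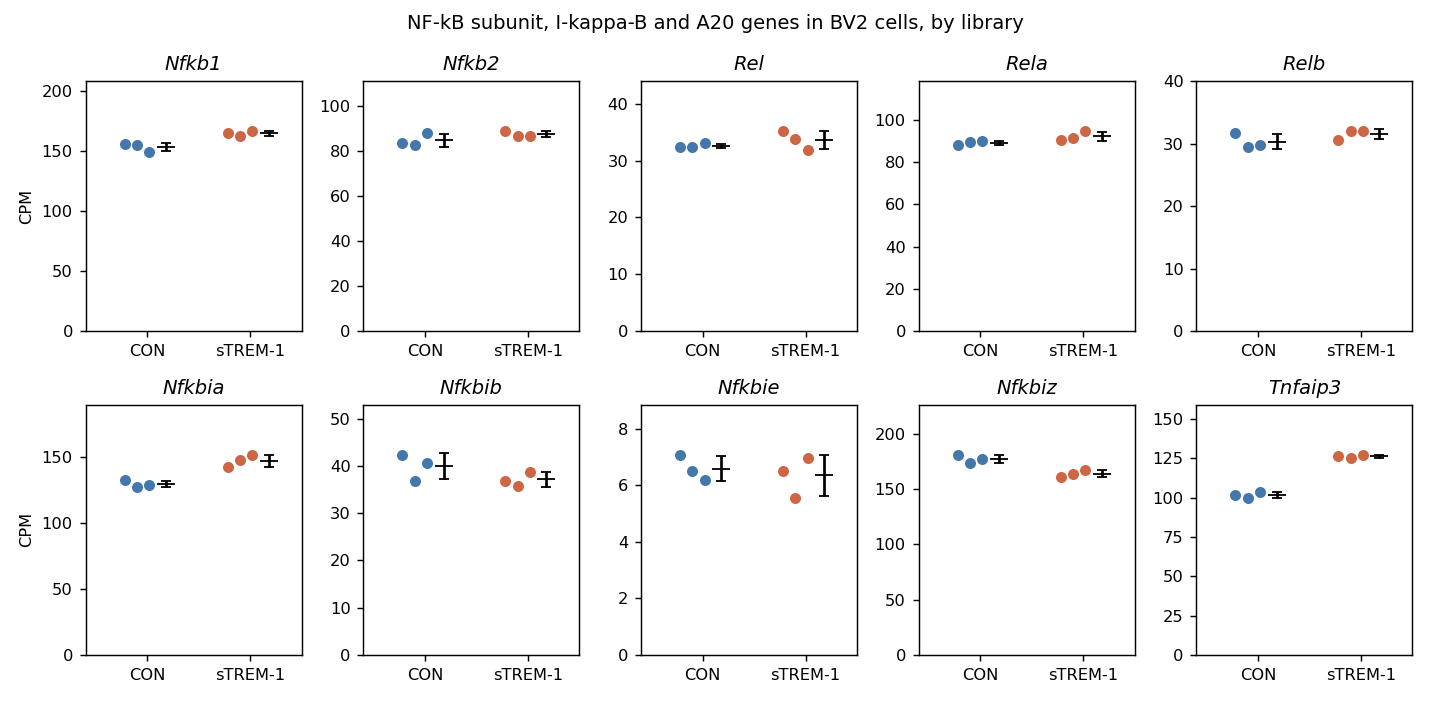
CPM of the 10 genes in each library (points; 3 CON, 3 sTREM-1), with the mean and SD beside them and axes that start at 0. All sTREM-1 points of Tnfaip3, Nfkbia, Nfkb1 and Rela lie above the CON points, and those of Nfkbiz lie below. Of these, Rela did not pass the test.

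Among the subunits, Nfkb1 encodes the precursor that is processed to a DNA-binding subunit and partners RelA in the classical dimer. The gene lies on the minus strand at chr3:135584655-135691547 (GRCm38). It measured 156, 155 and 150 CPM in the CON libraries and 165, 163 and 167 CPM in the sTREM-1 libraries. Every sTREM-1 library was above every CON library. Its mean ± SD over 3 libraries was 154 ± 3.35 CPM in CON and 165 ± 2.04 CPM in sTREM-1. This was a log2 fold change of 0.10 (SE 0.03, 95% confidence interval 0.04 to 0.16, adjusted p = 0.00591). Without CON replicate 3, its lowest library, the change was 0.08 and the call was lost, with an adjusted p of 0.0540.

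Rela encodes RelA, the main activating subunit of the classical pathway. It measured 87.8, 89.2 and 89.6 CPM in CON and 90.4, 91.2 and 94.6 CPM in sTREM-1, so that the groups did not overlap. The difference of 3.54% did not pass the test (adjusted p = 0.292), and its 95% confidence interval ran from -1.30% to 8.61%.

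The other 3 subunit genes did not pass the test and their groups overlapped. Nfkb2, the precursor of the non-canonical pathway, measured 83.7, 82.6 and 88.0 CPM in CON and 89.0, 86.9 and 86.9 CPM in sTREM-1 (adjusted p = 0.350). The interval of its change ran from -1.71% to 8.60%. Relb, which encodes the usual partner of the processed Nfkb2 product, lay between 29.4 and 31.7 CPM in CON and between 30.5 and 32.0 CPM in sTREM-1 (adjusted p = 0.489, interval -3.64% to 11.9%). Rel, which encodes c-Rel, a subunit best known from lymphocytes and myeloid cells, lay between 32.4 and 33.1 CPM in CON and between 31.9 and 35.2 CPM in sTREM-1 (adjusted p = 0.583, interval -4.16% to 10.8%). For all 3 genes the intervals left room for a change in either direction, and for one of several percent in the upward direction. Exons of Nfkb2 overlap genes on the opposite strand, Psd over 299 bases and a non-coding RNA over 531 bases, and it was not stated whether the counting used the strand.

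The IκB genes did not move together. Nfkbia encodes IκBα, the inhibitor that holds the RelA dimer and is rebuilt after each round of activation. The gene spans chr12:55489410-55492647 on the minus strand. It measured 132, 127 and 129 CPM in CON and 142, 147 and 152 CPM in sTREM-1, with all sTREM-1 libraries above all CON libraries. Its mean rose from 129 ± 2.63 to 147 ± 4.66 CPM, a log2 fold change of 0.18 (SE 0.03, 95% confidence interval 0.12 to 0.25, adjusted p = 2.31e-05), or 13.6%. This was larger than the spread between replicates and lay at the 82.3 percentile of the log2 fold changes of all tested genes.

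Nfkbiz encodes IκBζ, a nuclear member of the family that acts as a co-activator of selected NF-κB targets rather than as a cytoplasmic inhibitor. It lies at chr16:55811375-55838899 on the minus strand and was the gene that fell. It measured 181, 174 and 177 CPM in CON and 161, 164 and 167 CPM in sTREM-1, and no sTREM-1 library reached the lowest CON library. The mean changed from 177 ± 3.64 to 164 ± 3.07 CPM, a log2 fold change of -0.11 (SE 0.03, 95% confidence interval -0.17 to -0.06, adjusted p = 0.00229).

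Nfkbib and Nfkbie encode IκBβ and IκBε, inhibitors of the cytoplasmic kind. Nfkbib measured 42.3, 36.8 and 40.6 CPM in CON and 36.9, 35.8 and 38.8 CPM in sTREM-1, and the groups overlapped through CON replicate 2. Its log2 fold change was -0.11 (SE 0.05, adjusted p = 0.137), and the interval of the change ran from -13.7% to 0.12%. Without CON replicate 2 the change was -0.16 and passed the test (adjusted p = 0.0229), which brought the genes that fell from 1 to 2. Its exons share 314 bases with Ccer2 and 42 with Sirt2 on the opposite strand. Nfkbie was the least abundant of the 10 genes, with 237 to 298 counts in a library. It lay between 6.20 and 7.08 CPM in CON and between 5.56 and 6.98 CPM in sTREM-1 (log2 fold change -0.05, adjusted p = 0.779), and its interval from -18.3% to 13.5% was the widest of the 10.

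Tnfaip3 encodes A20, a ubiquitin-editing enzyme that shuts off signalling upstream of the IKK kinases. The gene is on the minus strand at chr10:19000910-19015657. Its libraries measured 101, 99.8 and 103 CPM in CON and 127, 125 and 127 CPM in sTREM-1. Both groups were narrow and lay far apart. The mean rose from 102 ± 1.82 to 126 ± 0.90 CPM, a log2 fold change of 0.32 (SE 0.03, 95% confidence interval 0.25 to 0.38, adjusted p = 1.95e-09), or 24.5%. This was at the 91.4 percentile of all tested genes, and the rise stayed between 0.30 and 0.33 over 13 other ways of analysing the counts.

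**Figure D3:**
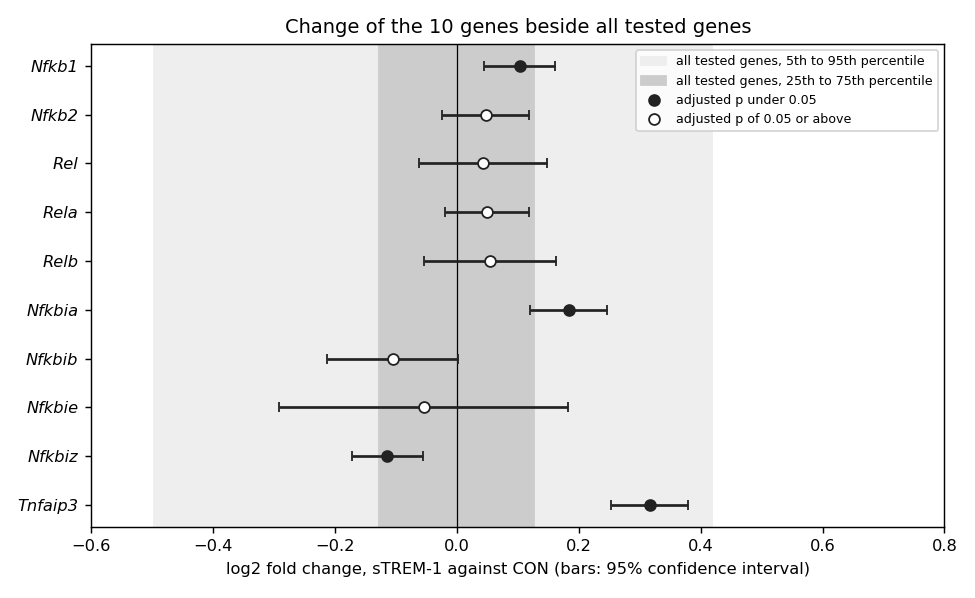
Log2 fold change of each of the 10 genes, sTREM-1 against CON, with 95% confidence intervals, over bands that hold the middle of all 14120 tested genes. Tnfaip3 (0.32) and Nfkbia (0.18) lie to the right of the 25th to 75th percentile band, and the other 8 lie inside it.

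To compare genes with each other, CPM was divided by the length of the union of a gene's annotated exons in kb. On this scale Nfkbia was the most abundant in CON (80.4 ± 1.63 CPM per kb). It was followed by Nfkbiz (35.3 ± 0.73), Rela (28.9 ± 0.32), Nfkb2 (18.5 ± 0.63), Nfkbib (18.4 ± 1.30), Tnfaip3 (14.0 ± 0.25), Nfkb1 (12.7 ± 0.28), Relb (7.81 ± 0.31), Rel (4.37 ± 0.05) and Nfkbie (2.17 ± 0.15). The levels of Nfkb2 and Nfkbib did not differ beyond their spread. The middle of this order depended on the length used. By the length of the longest coding transcript, a choice made after seeing the data, Nfkb1 measured 37.3 ± 0.81 CPM per kb in CON and stood at rank 3 instead of rank 7. Tnfaip3 then measured 23.0 ± 0.41 CPM per kb, beside Nfkb2 at 22.045 ± 0.75 and Nfkbib at 19.4 ± 1.37. With either length Nfkbia was first in CON, Nfkbiz was at rank 2, and Relb, Rel and Nfkbie were the last 3.

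Within the family of subunits, shares of the summed CPM per kb hardly moved. In CON Rela held 39.99 ± 0.45%, Nfkb2 25.6 ± 0.68%, Nfkb1 17.6 ± 0.50%, Relb 10.8 ± 0.43% and Rel 6.04 ± 0.03%. In sTREM-1 Rela held 39.8 ± 0.65% and Nfkb1 18.2 ± 0.12%. This order depended on the length used. With the longest coding transcript, which is 4117 bases for Nfkb1 against 12061 bases for its exon union, Nfkb1 was first in CON with 33.9%, ahead of Rela with 29.7%.

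The shares of the IκB genes lay further apart between the groups. The share of Nfkbia was 58.7%, 59.5% and 58.8% in CON and 63.3%, 64.2% and 63.8% in sTREM-1. The share of Nfkbiz was 25.7%, 26.1% and 25.9% in CON and 23.0%, 22.9% and 22.5% in sTREM-1. Neither pair of groups overlapped. The share of Nfkbib, whose CPM groups overlapped, did not overlap either (13.9%, 12.8% and 13.8% in CON, 12.2%, 11.6% and 12.1% in sTREM-1). Shares within a family depend on each other, so that a rise of Nfkbia lowers those of the other genes. The ratio of Nfkbia to Nfkbiz in CPM per kb was 2.28, 2.28 and 2.27 in CON and 2.76, 2.80 and 2.83 in sTREM-1, while the ratio of Nfkbia to Rela went from 2.78 ± 0.08 to 3.05 ± 0.04. These shares and ratios restate the changes given above and were not tested.

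**Figure D4:**
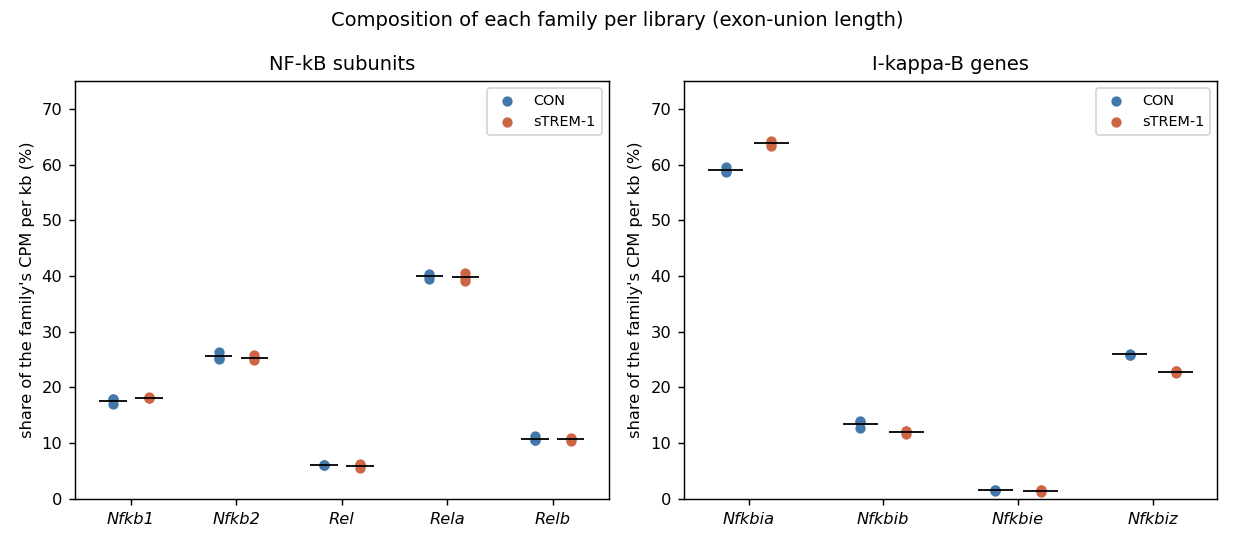
Share of each gene in its family's summed CPM per kb, in percent, per library (points) with group means (lines), by exon-union length. The subunit shares overlap or lie close together, while Nfkbia lies near 59.0% in CON and 63.8% in sTREM-1 and Nfkbiz moves the other way.

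The genes around these 10 in the pathway were described from 3 lists, which were chosen with earlier results of these data known. In the IKK complex and upstream signalling list, 8 of 37 genes rose, 4 fell and 25 did not pass the test, with a median log2 fold change of 0.01. This was 32.4% called, against 30.5% of all tested genes. Ikbke, which encodes the IKK-related kinase IKKε, rose from 92.8 ± 2.63 to 109 ± 3.38 CPM (log2 fold change 0.24, adjusted p = 2.36e-06). Rbck1, a subunit of the linear ubiquitin ligase, rose by 0.22, Card9, an adaptor of C-type lectin receptors, rose by 0.21, and Ripk1, the kinase that joins the tumour necrosis factor receptor to IKK, rose by 0.15. Irak1 and Irak2, kinases of the Toll-like receptor pathway, changed by -0.21 and -0.12, Chuk, which encodes IKKα, by -0.18, and the paracaspase Malt1 by -0.10. The call of Malt1 (adjusted p = 0.0381) was lost in 5 of 13 alternatives, among them without CON replicate 1 (adjusted p = 0.0888), CON replicate 3 (0.0961), sTREM-1 replicate 1 (0.129) and sTREM-1 replicate 2 (0.0768). Ikbkb and Ikbkg, the other IKK subunits, did not pass the test.

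Of 31 other inhibitors and feedback regulators, 28 were tested, of which 6 rose, 6 fell and 16 did not pass. Their median was -0.01, and 42.9% were called, against 30.5% of all tested genes. Tnip3, which encodes a partner of A20, rose most in this list, from 17.6 ± 1.45 to 27.4 ± 1.96 CPM (log2 fold change 0.64, SE 0.07, adjusted p = 1.84e-08). Usp18, a protease of the interferon response, rose by 0.53, Trafd1 by 0.34 and Tnfaip8l2 by 0.28, the latter both regulators that dampen Toll-like receptor signalling. Nlrc3 changed by -0.41 (adjusted p = 4.07e-10), Zc3h12a, the RNase Regnase-1, by -0.19, Rnf11, a partner of A20, by -0.13, and Tollip by -0.10. The call of Zc3h12a was lost without CON replicate 1 (adjusted p = 0.0758). The call of Rnf11 was lost without CON replicate 2 (0.0827), sTREM-1 replicate 1 (0.0579) or sTREM-1 replicate 2 (0.0509). That of Tollip was lost without CON replicate 2 (0.0707) or sTREM-1 replicate 3 (0.0555).

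Of 40 genes known as NF-κB targets, 35 were tested, of which 10 rose, 15 fell and 10 did not pass. The targets thus moved in both directions, with a median of -0.08. Of those tested, 71.4% were called, against 30.5% of all tested genes. Because the list was chosen with earlier results known, this share cannot be read as a trait of NF-κB targets. Tlr2, a receptor of bacterial lipoproteins, rose from 92.9 ± 1.34 to 125 ± 2.87 CPM (log2 fold change 0.42, adjusted p = 8.66e-12). Sod2, the mitochondrial superoxide dismutase, rose by 0.40, the adhesion molecule Icam1 by 0.37 and Slfn2 by 0.19. Ptgs2, which encodes cyclooxygenase-2, went from 679 ± 21.0 to 483 ± 14.5 CPM (log2 fold change -0.49, adjusted p = 1.82e-15), the iron carrier Lcn2 changed by -0.48, and the chemokines Ccl2 and Ccl3 changed by -0.43 and -0.30. Il6, named after its values were seen, had the largest fall of the list, from 33.2 ± 1.44 to 21.0 ± 1.03 CPM (log2 fold change -0.66). Tnf, a classical target, and Nfkbil1 of the list of inhibitors were listed at 0 in all 6 libraries and have no value here.

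**Figure D5:**
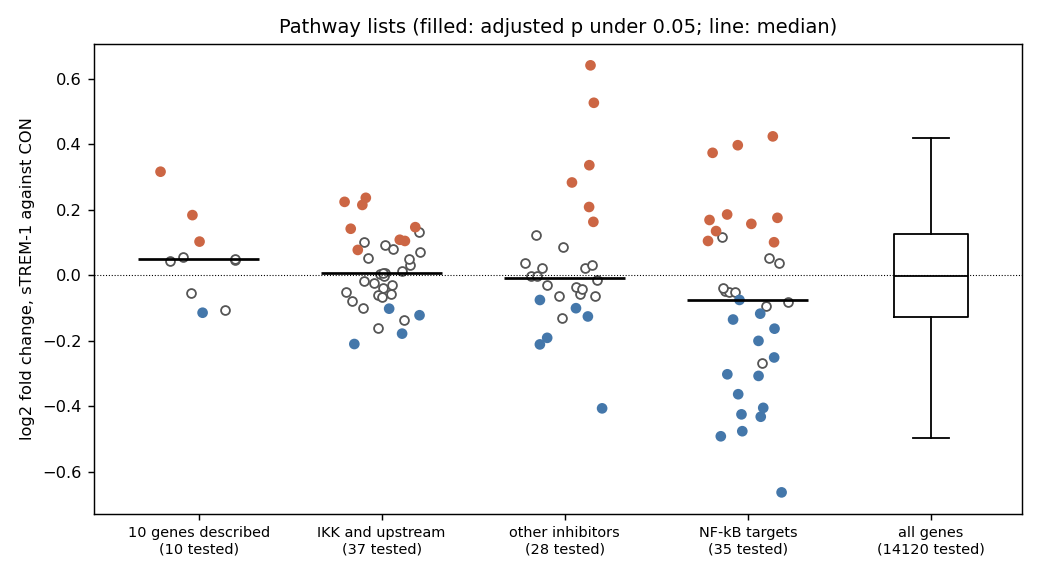
Log2 fold changes, sTREM-1 against CON, of the tested genes of each list (filled points passed the test, lines are medians) beside all tested genes (box: quartiles, whiskers: 5th to 95th percentile). The medians of the 4 lists lie between -0.08 and 0.05, while the other inhibitors spread from -0.41 to 0.64 and the NF-κB targets from -0.66 to 0.42.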

How the data were processed

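RNA-seq was performed on 3 CON and 3 sTREM-1 BV2 libraries, as the labels and the table give them, while the methods of the study state a larger number of cultures. The authors extracted total RNA with TRIzol, quantified expression with RSEM and tested with edgeR, and the deposited table holds raw counts, whole numbers for each gene symbol with no normalization. The submitters' processing notes list HISAT2 2.0.4 and the human builds hg19 and GRCh38, although the symbols are those of mouse. The mouse build, the annotation and the strand setting of the counting are not given in the sources used here, so that reads of overlapping genes may have been split.

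Low genes were removed by filterByExpr at a minimum count of 10. Library sizes were then adjusted with TMM factors. Differential expression was assessed in edgeR 4.0.16 (R 4.3.3) by its quasi-likelihood F-test without covariates, with Benjamini-Hochberg adjustment over all 14120 tested genes and calls at 0.05. All adjusted p-values come from this test unless named otherwise. CPM values use the TMM library sizes. The test was checked on simulated data. Coordinates and lengths are from GENCODE M21 (GRCm38) and windows before starts from RefSeq (GRCm38.p6), matched by symbol, and stretches with annotated exons were trimmed from the 2 longer sequences. Named genes are the 10 genes, from each pathway list at most 4 per direction of smallest adjusted p among those called whose groups did not overlap, and markers at the ends of the range. The 10 genes and the lists were chosen with earlier results of these data known. Alternatives were another scaling, 2 other filters, DESeq2 1.42.0, a replicate block, a correction for GC content and length with and without the block, and leaving out each library. The precision depended on the totals of 40070633 to 45877107 counts and on the spread between libraries. Libraries of 1 group differed by 3.45 to 5.00 in chi-square per gene, above sampling noise, so that none was counted as a duplicate.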

Additional observations from a re-analysis of the deposited data

How the results depend on the processing

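Under 13 alternatives, 127 of 130 values of the 10 genes kept their direction and their side of the threshold, and so did 301 of 312 values of the 24 other named genes. Tnfaip3, Nfkbia and Nfkbiz passed the test in all 13, with ranges of 0.30 to 0.33, 0.16 to 0.21 and -0.14 to -0.10, and Nfkb1 in 12. The exceptions were Nfkb1 without CON replicate 3 (0.08, adjusted p = 0.0540), Nfkbib without CON replicate 2 (-0.16, adjusted p = 0.0229) and Nfkbie, which turned from -0.05 to 0.031 without sTREM-1 replicate 2, where neither value passed, and whose values ranged from -0.13 to 0.03 when 1 library was left out. The number of the 10 genes that fell ranged from 1 to 2 when 1 library was left out. With lengths of the longest coding transcript, the CON shares were 33.9% for Nfkb1, 29.7% for Rela, 20.004% for Nfkb2, 12.5% for Relb and 3.97% for Rel, and the levels per kb of 7 of the 10 genes moved by more than 1 SD. With a replicate block 4613 genes were called, 4 of the 10 genes among them. Deviations of same-numbered libraries correlated at -0.02, -0.03 and -0.01, so that no shared effect of the replicate number was seen. This cannot show whether the cultures were handled in pairs, which no label states. DESeq2 called 4027 genes. GC content and length were known for 90.7% of the tested genes. Depth limits Nfkbie most, with 237 to 298 counts.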

Other observations

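Tnf and Nfkbil1 had no counts in any library. From Tnf, a run of listed protein-coding genes was extended both ways until a gene had more than 1 count over all 6 libraries. Its low counts follow from this rule. The run held 29 genes on chromosome 17 (GRCm38, from 35016579 to 35346762), among them Nfkbil1, with 27 at 0 and 2 at 1 count. Of all 20647 protein-coding genes listed, 31.9% were at 0. The run also holds the microglia marker Aif1, Lta and Ltb, which encode the lymphotoxins, and genes that most cells use, such as Csnk2b, Bag6, Prrc2a and Clic1, named after their values were seen. The gene before the run, Vars, had 186 counts in all and the gene after it, H2-Q4, had 6051. A value of 0 for Tnf or Aif1 in this table therefore cannot be read as a lack of expression, and the source of the run was not tested.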
